A study of Mus musculus with 24 samples.

Results

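The genes described here are the cytosolic ribosomal protein genes of the mouse, the Rpl and Rps families, in macrophages grown from bone marrow. They were chosen by gene symbol alone, with pseudogene symbols and the Rps6k kinases left out, which gave 84 genes of the 52636 in the deposited tables. Of these, 51 name proteins of the large ribosomal subunit and 33 proteins of the small subunit. Rps3a1, Fau, Rpl36al, Rpl7l1 and Rack1 fall outside the symbol rule, and those measured are given separately. For Rps4l and Rpl6l the annotation gives a gene type that does not code for protein.

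The cytosolic ribosome is built from ribosomal RNA and one copy of most ribosomal proteins, so the cell needs these proteins in matched amounts. In mammals their mRNAs belong to the TOP class, which begins at a cytosine followed by a tract of pyrimidines and whose translation is controlled through the kinase mTOR and the RNA-binding protein LARP1. Low oxygen is known to restrain mTOR, and macrophages change their metabolism and their translation when oxygen falls.

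Bone marrow cells of 6 mice aged 8 to 12 weeks were cultured for 6 days with L cell conditioned medium and then held for 18 h at 20% or 1% oxygen. All mice carried Csf1r-iCre, a Cre recombinase driven in myeloid cells, and all expressed ribosomal protein L10a fused to EGFP. One floxed allele of HuR (HuR +/fl) was carried by the controls, whose numbers were HET-97 and HET-102 and HET-129. Conditional knockouts by label (HuR fl/fl) were the animals numbered KO-176 and KO-281 and KO-301. HuR, encoded by Elavl1, is an RNA-binding protein that stabilises many mRNAs. Each lysate was divided into total RNA and RNA bound to the tagged ribosomes (translating ribosome affinity purification, TRAP), which gave 24 poly(A) libraries in 8 groups of 3.

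The level of Elavl1 was set beside the genotype label first. The values are per gene, so loss of a part of the transcript could go unseen, and these levels cannot settle the label. Elavl1 in normoxic total RNA stood at 29.9, 30.8 and 35.7 TPM in the controls and at 35.1, 34.8 and 36.1 TPM in the labelled knockouts, so the labelled knockouts were not lower. At 1% oxygen the total RNA values were 21.2, 59.8 and 24.9 TPM and 29.4, 34.9 and 26.1 TPM. Elavl1 in TRAP RNA stood at 10.54 to 18.1 TPM in the 6 control libraries and at 0.84 to 23.5 TPM in the 6 of the labelled knockouts, where KO-301 at 20% oxygen had 0.84 TPM and KO-176 at 1% oxygen had 1.75 TPM. The labelled knockouts and the controls differed by 0.03 ± 0.22 (log2, SE) in total RNA and by -0.81 ± 0.53 in TRAP RNA (limma, adjusted p = 0.989 and 0.999). The 12 macrophage markers summed to 22150 to 35277 TPM in total RNA. The hypoxia check genes are targets of hypoxia-inducible factor, and 7 were measured. At 1% oxygen 6 of 7 were called higher in total RNA (Egln3 by 2.02 ± 0.19, Ankrd37 by 1.59 ± 0.17), beside 1.56% of all genes. In TRAP RNA 2 of 7 were called higher, beside 0.0257% of all genes. All 7 had a positive difference in both fractions, with medians of 0.97 in total and 0.81 in TRAP RNA. Markers that define B cells (Cd79a, Pax5), T cells (Cd3e, Cd3g), erythroid cells (Alas2, Hbb-bs) and mast cells (Fcer1a, Mcpt2, Tpsb2) were listed at 0 in all libraries, as was the neutrophil marker Ly6g. Other markers of B cells, chiefly Ighm, and of T cells, chiefly Cd4, were present, and the sums of both lists are given with the mice they moved with.

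The start sites of the genes most and least enriched in TRAP RNA are shown because the TOP tract lies there. Promoter entries from RefSeq (GRCm38.p6) were matched by symbol for 62 of the 84 genes. Printed below, 5′ to 3′ on the strand of the gene, are 30 bases before and 30 bases from the annotated start. Capitals mark the longest unbroken run of C or T within the 20 bases on either side of the start, where it has at least 7 bases. Shorter and further runs stay in lower case. The first 4 genes had the largest TRAP difference among genes with 1 promoter entry, the next 4 the smallest, and Rps4x and Rps6 are described further on.
Rpl37a (chr1:72711230-72711289, plus strand): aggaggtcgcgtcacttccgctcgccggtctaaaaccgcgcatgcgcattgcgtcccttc
Rpl38 (chr11:114668550-114668609, plus strand): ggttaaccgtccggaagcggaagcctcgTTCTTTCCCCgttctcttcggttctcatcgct
Rps28 (chr17:33824533-33824592, minus strand): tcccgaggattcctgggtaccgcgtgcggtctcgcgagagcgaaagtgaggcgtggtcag
Rps23 (chr13:90923092-90923151, plus strand): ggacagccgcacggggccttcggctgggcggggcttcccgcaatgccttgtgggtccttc
Rpl4 (chr9:64173357-64173416, plus strand): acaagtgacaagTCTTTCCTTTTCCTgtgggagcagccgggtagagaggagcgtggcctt
Rplp0 (chr5:115559437-115559496, plus strand): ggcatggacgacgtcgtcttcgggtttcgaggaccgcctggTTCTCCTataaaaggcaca
Rpl15 (chr14:18270957-18271016, minus strand): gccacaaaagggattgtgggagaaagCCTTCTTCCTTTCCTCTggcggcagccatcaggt
Rps2 (chr17:24720033-24720092, plus strand): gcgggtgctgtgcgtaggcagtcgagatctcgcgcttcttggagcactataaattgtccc
Rps4x (chrX:102189362-102189421, minus strand): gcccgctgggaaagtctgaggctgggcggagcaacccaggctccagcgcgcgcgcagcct
Rps6 (chr4:86857338-86857397, minus strand): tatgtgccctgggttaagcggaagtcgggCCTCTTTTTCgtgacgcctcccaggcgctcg

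A run of at least 7 C or T on the transcript strand was sought within the 20 bases on either side of the start, and bases outside that window were not counted. It was present in 54.1% of the 74 promoters of the ribosomal protein genes and in 24.3% of all 32851 promoters. The motif CCGGAAG, a core that ETS-family factors such as GABP bind, was found on either strand in 35.1% of the 74 promoters (300 bases each) against 8.86% of all. Rpl4 and Rpl15, among the least enriched, had the long runs of 14 and 17 bases shown above, and Rpl37a, the most enriched, had none of 7 in that window, although its printed stretch ends in a run of 7 just outside it. Over the 60 genes with a promoter and a test, the length of the run and the TRAP difference correlated across genes at Pearson r = -0.06 and Spearman rho = -0.03, a description only, since genes of 1 set of libraries are not independent. The annotations also differ in their starts. GENCODE starts the gene Rpl37a at chr1:72711290, beside the run of 7 that ends its printed stretch, so its lack of a run depends on the annotation. The gene Rps23 starts at chr13:90922958 in GENCODE, before its printed stretch. An annotated start may differ from the one used in macrophages, and a match is not a binding site.

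Messages for ribosomal proteins were among the most abundant of the cell. Together the 84 genes made up 9.22 to 17.1% of all TPM in the 12 total RNA libraries, with a median of 14.0%, and 14.4 to 28.6% in the 12 TRAP libraries, with a median of 24.5%. TPM, the unit the values were read as, is scaled to transcript length. Levels of different genes are set side by side on that reading, and with the read counter unknown their order is uncertain. In total RNA 63 genes had a median of at least 1000 TPM, 15 lay between 100 and 1000 TPM, and the others were under 10 TPM or listed at 0. Rps29, a small subunit protein, was the highest, with a lowest, median and highest level of 3981, 5019 and 6746 TPM in total RNA and 9044, 11722 and 15121 TPM in TRAP RNA. Rplp1 of the P stalk followed with a median of 4457 TPM in total RNA, then Rps27, Rps15 and Rpl38 in the mean over all 24 libraries.

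The genes at the bottom were paralogues of core members. Rpl10l, a retrogene known from the testis, was listed at 0 in all 24 libraries, and Rpl3l, known from muscle, did not exceed 0.956 TPM. Rpl39l, the paralogue of Rpl39 known from the testis, reached at most 3.66 TPM, whereas Rpl39 had a median of 1749 TPM in total RNA. Rpl6l had a median of 1.10 TPM, Rps27rt of 3.55 TPM and Rps4l of 7.73 TPM in total RNA. Rpl22l1 and Rps27l were well above these: Rpl22l1 had a median of 197 TPM beside 358 TPM for Rpl22, and Rps27l had a median of 528 TPM beside 3433 TPM for Rps27. After the filter of at least 1 TPM in 3 libraries, 82 of the 84 genes were tested, and Rpl10l and Rpl3l were not.

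Rps27rt, a retrocopy, shares sequence with Rps27, and both start regions are shown because reads from one can be assigned to the other. The stretch common to both, in capitals, runs on past the printed part to 38 bases. Only genomic bases up to 50 past the annotated start were compared, and the rest of the mRNAs was not. The part in which reads can be shared may therefore be longer than 38 bases.
Rps27 (chr3:90213619-90213668, minus strand): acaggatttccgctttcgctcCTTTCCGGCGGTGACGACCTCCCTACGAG
Rps27rt (chr9:114982710-114982759, minus strand): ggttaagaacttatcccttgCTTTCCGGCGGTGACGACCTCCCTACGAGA
Rps27rt is therefore given as uncertain throughout. A further 276 pseudogene symbols of the family, left out by the rule, summed to 353 to 821 TPM in total libraries, against 586 to 1186 TPM in TRAP libraries. How reads were divided between them and the genes is not given in the sources used here.

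The first comparison asked which of these messages were enriched on tagged ribosomes, as TRAP minus total RNA within each mouse. Ribosomal protein mRNAs took up a larger part of TRAP RNA than of total RNA in all 12 lysates. The summed share rose by 1.47 to 2.09 times per lysate, with a median of 1.79 over the means of the 6 mice. The small subunit genes had the higher ratio in all 12 lysates, from 1.56 to 2.28, against 1.40 to 1.95 for the large subunit genes. As a share of nuclear protein-coding TPM, the median ratio was 1.81.

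**Figure D1:**
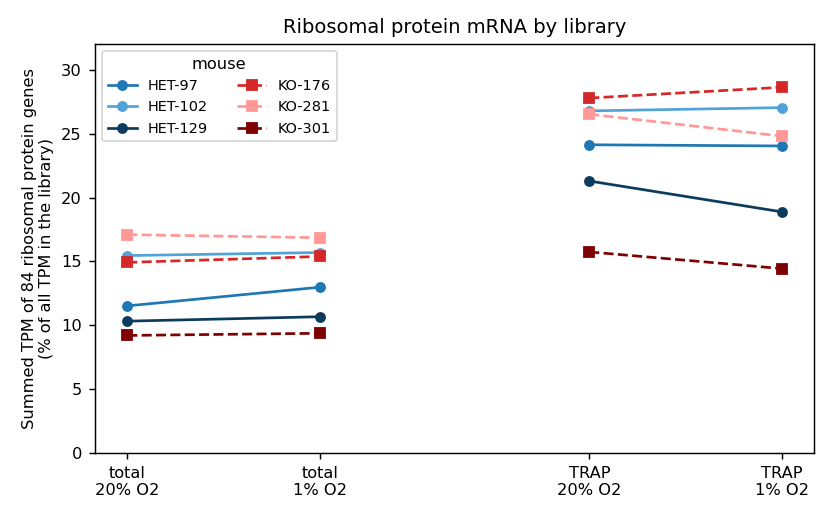
Summed TPM of the 84 ribosomal protein genes as a percentage of all TPM (vertical axis) in each of the 24 libraries, by fraction and oxygen; each line joins both oxygen levels of 1 mouse, with solid lines and circles for controls and dashed lines and squares for labelled knockouts. Every TRAP value lies above the total RNA value of the same lysate, KO-301 is lowest in each column at 9.22 to 15.7%, and the lines of the 2 genotypes interleave.

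By gene, 74 of the 82 tested genes were higher in TRAP RNA and 0 were lower (limma on log2(TPM + 1), Benjamini-Hochberg adjusted p under 0.05), where 72.3% of the 12918 genes tested were called, 8.17% higher and 64.2% lower. The median difference was 0.75 on the log2 scale for the ribosomal protein genes and -0.54 for all genes. It was 0.72 for the 49 large subunit genes, 43 of them called, and 0.82 for the 33 small subunit genes, 31 of them called. In 70 genes the difference was positive in 6 of 6 mice, which held for 6.78% of all genes. With other scalings of the libraries the median of all genes moved from -0.54 to between -0.39 and 0.27, and the distance between the ribosomal protein genes and all genes, 1.29 as deposited, was 1.36 after rescaling to the other protein-coding genes, 1.28 with median centring and 0.42 with quantile normalization. The share of calls that were higher moved with the scaling too, from 11.3% as deposited to 20.4%, 73.2% and 50.9% in that order.

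The largest difference belonged to Rpl37a, a large subunit protein (chr1:72711290-72713813). Rpl37a stood at a lowest, median and highest level of 1879, 2418 and 3184 TPM in total RNA and 4250.1, 6205 and 7717 TPM in TRAP RNA, so that the fractions did not overlap. Its difference was 1.29 ± 0.08 (log2, SE, n = 6 mice; limma adjusted p = 8.7e-06), and it was positive in 6 of 6 mice. Rps21, which sits on the small subunit and was next at 1.28 ± 0.08, had 1849.7 to 4022 TPM in the total libraries, against 4578 to 8718 TPM in TRAP RNA, again without overlap. Rpl38, Rps28, Rps29, Rps23, Rpl37 and Rpl34 followed with differences of 1.26, 1.23, 1.22, 1.19, 1.12 and 1.11, all past the threshold with the largest SE at 0.09. All of these have coding sequences shorter than the median of the family, given further on.

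The P stalk, where the translational GTPases bind, was split. Rplp2 and Rplp1 rose in TRAP RNA by 1.08 ± 0.09 and 0.78 ± 0.08, while Rplp0, their anchor, differed by -0.02 ± 0.08 (limma adjusted p = 0.834). Rplp0 had a lowest, median and highest level of 1181, 2136 and 2635 TPM in total RNA and 1154, 2092 and 2761 TPM in TRAP RNA. Its values in the fractions overlapped, and the difference was positive in 3 of 6 mice. With the rescaling and with median centring the difference of Rplp0 was 0.21 and 0.78, and with quantile normalization it was -0.44 and called lower.

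The remaining genes not called higher were Rpl4, Rpl3, Rpl15, Rps2 and the low paralogues Rpl39l, Rpl6l and Rps4l. Rpl4, a large subunit protein that lines the exit tunnel (chr9:64173375-64178666), had a lowest, median and highest level of 851, 1884 and 2198 TPM in total RNA and 673, 1636 and 2096 TPM in TRAP RNA. Its difference of -0.14 ± 0.07 was not called (limma adjusted p = 0.106) and was negative in all mice but HET-97. Without HET-97 it was called lower, at -0.19 (adjusted p = 0.0358), and its sign depended on the scaling: 0.09 after rescaling, 0.66 with median centring and -0.43 with quantile normalization, where it was called lower. Rpl3, close to the peptidyl transferase centre, differed by 0.12 ± 0.07, Rpl15 by 0.13 ± 0.09, and Rps2 by 0.09 ± 0.10.

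Members with roles outside the core ribosome lay between these ends. Rpl5 and Rpl11, which with 5S ribosomal RNA bind and inhibit Mdm2 when ribosome assembly fails, rose by 0.37 ± 0.06 and 0.72 ± 0.08. Rps6, the substrate of the S6 kinases, rose by 0.36 ± 0.06, from a median of 1572 TPM in total RNA to 2203 TPM in TRAP RNA. Rpl22 and Rpl22l1, paralogues with roles in lymphocyte development, rose by 1.03 ± 0.09 and 0.78 ± 0.07. Of 5 paralogues of core members tested 3 rose, the others being Rps27l at 0.82 ± 0.08 and Rps27rt at 0.89 ± 0.17, and Rps27 rose by 1.08 ± 0.07. Rpl10a, the tagged protein, rose by 0.56 ± 0.06. The 4 X-linked genes all rose, Rps4x by 0.27 ± 0.06, Rpl10 by 0.34 ± 0.10, Rpl39 by 0.83 ± 0.07 and Rpl36a by 1.02 ± 0.07.

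**Figure D2:**
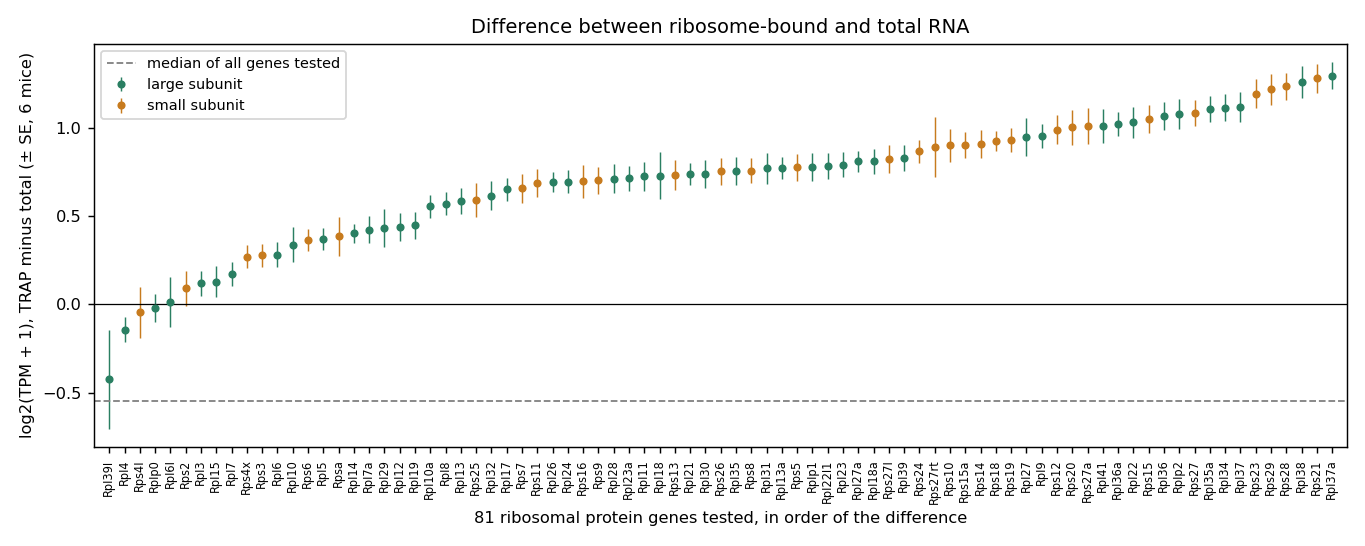
Difference between TRAP and total RNA in log2(TPM + 1) (vertical axis) for 81 of the 82 tested genes in order of the difference. Bars are limma's moderated SE from 6 mice. Green marks large and orange small subunit genes, and the dashed line is the median of all genes tested. The 81 points, 77 of them above 0, run from Rpl39l at -0.42 to Rpl37a at 1.29, and all lie above the dashed line at -0.54.

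Coding length was a property that the choice by symbol did not use. The 80 tested genes with an annotated coding sequence had 138 to 1257 coding nucleotides with a median of 453, against a median of 1335 over all 10893 tested protein-coding genes. Across the ribosomal protein genes, coding length on a log scale and the TRAP difference correlated at Pearson r = -0.60 and Spearman rho = -0.72, and across all tested protein-coding genes at -0.49 and -0.51. These are correlations across genes of the same libraries and carry no p. The 11 genes with up to 300 coding nucleotides had a median difference of 1.12, compared with 0.28 in 236 other genes of that length. The 38 genes of more than 300 and up to 500 nucleotides had 0.79 against 0.06 in 777 others, the 23 of up to 800 had 0.65 against -0.26 in 1567 others, and the 8 of up to 1300 had 0.15 against -0.53 in 2640 others. At each length the ribosomal protein genes were thus the higher group by their median, and within the family the longer genes were lower.

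**Figure D3:**
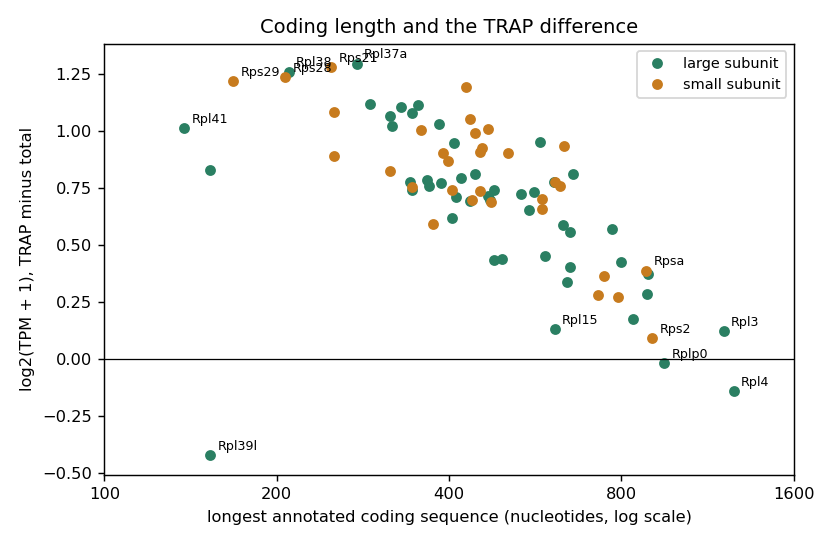
Length of the longest annotated coding sequence in nucleotides (horizontal axis, log scale) against the TRAP minus total difference in log2(TPM + 1) (vertical axis) for the 80 tested ribosomal protein genes with a coding sequence. The highest point is Rpl37a at 1.29 with 276 nucleotides, the shortest genes Rpl41 and Rpl39 lie at 1.01 and 0.83, the longest, Rpl4 with 1257 nucleotides, lies at -0.14, and Rpl39l, a gene of under 4 TPM, lies apart at -0.42.

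Several other quantities moved with the fraction. In total RNA 1.2 to 4.74% of TPM came from the mitochondrial genome, and in TRAP libraries 0.0229 to 0.298%, and the nuclear RNA Malat1 fell by 1.76 ± 0.32 (limma adjusted p = 0.000851). Gm42418 and Gm23935, loci whose reads resemble ribosomal RNA, took 1.62 to 4.51% of TPM in total libraries, against 2.77 to 10.9% in TRAP libraries. The part of these shifts in the differences was not tested, beyond the rescaling given above. The related genes outside the symbol rule went the same way in part: Fau, which encodes a ribosomal protein fused to a ubiquitin-like domain, rose by 1.00 ± 0.07, Rpl36al by 0.63 ± 0.07, Rpl7l1 fell by 0.31 ± 0.08, and Rack1, a scaffold on the small subunit, differed by 0.18 ± 0.08 (adjusted p = 0.0547). The 78 mitochondrial ribosomal protein genes had 27 called higher and 10 lower, with a median of 0.15, beside 8.17% and 64.2% of all genes.

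The second comparison asked how 1% oxygen changed the ribosomal protein mRNAs. In total RNA 1 gene of 82 rose and 0 fell, where 3.97% of the 12403 genes tested were called, 1.56% higher and 2.4% lower. The median difference was 0.05 for the family and -0.01 for all genes, and 59 of the 82 genes had a positive difference. Without adjustment 18 of the 82 genes (22%) had a p under 0.05, 16 of them higher, a share near the 22.6% of all genes. The lean to positive values depended on the scaling and on 1 mouse: 43 genes were positive with a median of 0.01 under quantile normalization, and 48 with a median of 0.02 without HET-97. As a median over the 82 genes, the difference per mouse was 0.18 in HET-97, where 74 genes were positive, between 0.03 and 0.05 in HET-102, HET-129, KO-176 and KO-301, and -0.02 in KO-281.

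The gene that rose was Rps4x, an X-linked small subunit protein (chrX:102184941-102189394, minus strand). Rps4x stood at a lowest, median and highest level of 1379.9, 2462 and 2663 TPM at 20% oxygen and 1529 TPM, 2805 TPM and 3067 TPM at 1% oxygen. The groups overlapped, since mice differed more than oxygen levels, but the 1% value was the higher in 6 of 6 mice. The difference was 0.18 ± 0.04 (limma adjusted p = 0.0422). This call was kept with a pseudocount of 0.1 and with the rescaling, and was lost in the other 13 of 15 alternatives, among them each left-out mouse, with adjusted p from 0.0786 to 0.99992. Without KO-281 the 1 call was Rpl29 instead, at 0.28 ± 0.05 (adjusted p = 0.0428).

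The other large differences in total RNA did not pass the test. Rps20, a small subunit protein, stood at 197, 273 and 342 TPM at 20% oxygen and 204, 368 and 438 TPM at 1% oxygen, as lowest, median and highest, with overlap. Its difference of 0.35 ± 0.10 was positive in 5 of 6 mice (limma adjusted p = 0.102). Rps27rt had 0.49 ± 0.21, Rps10 0.22 ± 0.06, Rplp0 0.21 ± 0.06 and Rpl23 0.19 ± 0.05, with adjusted p from 0.0826 to 0.225. On the negative side Rpl22l1 had -0.21 ± 0.12, Rpl22 -0.14 ± 0.05 and Rpl10a -0.14 ± 0.05, with adjusted p from 0.129 to 0.348. Rpl22 and Rpl10a were lower at 1% oxygen in 6 of 6 mice, which held for 9.28% of all genes, and 14 genes were higher in 6 of 6 mice, which held for 6.88%.

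In TRAP RNA 0 of 82 genes were called at 1% oxygen, where limma called 0.0343% of the 11676 genes tested, 0.0257% higher and 0.00856% lower, and 20 of the 82 genes (24.4%) had an unadjusted p under 0.05, 6 higher and 14 lower, beside 14.7% of all genes. The median was -0.03 for the family, with 33 genes positive, and 0.03 for all genes. Without HET-129 and KO-301 it was 0.02, with 46 genes positive. Rps12, a small subunit protein, had a lowest, median and highest level of 3381, 5703 and 6725 TPM at 20% oxygen and 2818, 4589 and 5858 TPM at 1% oxygen. The levels overlapped, and the difference of -0.27 ± 0.08 was negative in 6 of 6 mice (limma adjusted p = 0.205). Rplp2 had -0.28 ± 0.09 and Rps20 -0.35 ± 0.18, with adjusted p of 0.239 and 0.403. Rpl10, which joins the large subunit late in its assembly, had 0.36 ± 0.11, positive in 6 of 6 mice. Rpl15 had 0.30 ± 0.11 and Rpl19 0.26 ± 0.08, and the limma adjusted p of these 3 genes ran from 0.224 to 0.272. Of the 82 genes 4 were higher and 5 lower in 6 of 6 mice, near the 5.33% and 4.87% of all genes.

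**Figure D4:**
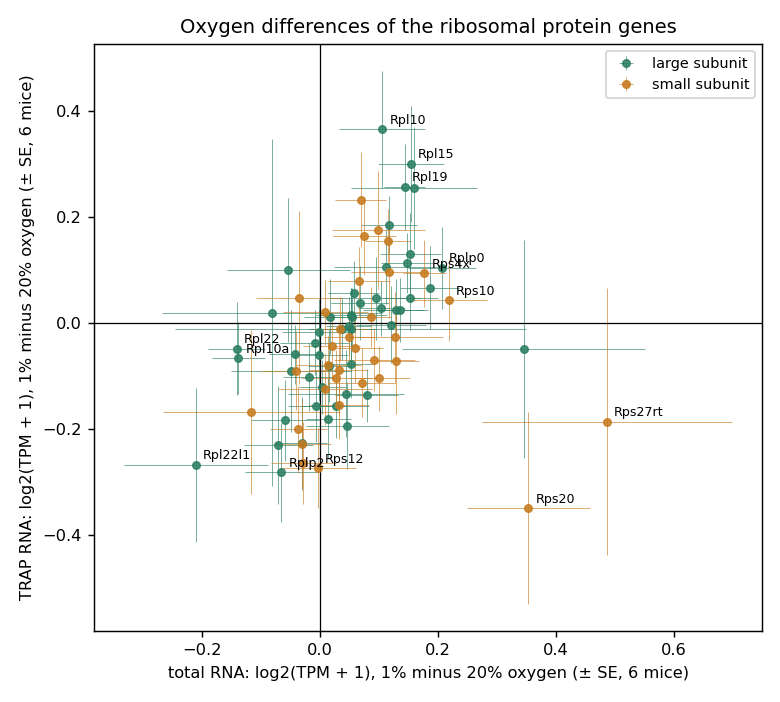
Difference between 1% and 20% oxygen in log2(TPM + 1) in total RNA (horizontal axis) and in TRAP RNA (vertical axis) for the 82 tested genes. Bars on both axes are limma's moderated SE from 6 mice. Green marks large and orange small subunit genes. Most points lie within 0.2 of 0 on the horizontal axis, Rpl10 is highest at 0.36 in TRAP RNA, and Rps20 lies at 0.35 in total RNA and -0.35 in TRAP RNA.

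Whether oxygen acted differently in the fractions was tested directly. The difference of differences, TRAP minus total, was called by limma in 0 of 82 genes and in 0% of the 12918 tested. Without adjustment 13 of the 82 genes (15.9%) had a limma p under 0.05, 12 of them lower. Over all genes 708 (5.48%) did. The difference of differences was negative in 66 of the 82 genes, with a median of -0.08 for the family and 0.04 for all genes. By mouse, the medians did not all go this way. In the order of the mice given above, the family's median oxygen difference was 0.02, 0.06, -0.09, 0.06, -0.06 and -0.15 in TRAP RNA. In total RNA it was 0.18, 0.04, 0.05, 0.05, -0.02 and 0.03. Only HET-102 (0.06 against 0.04) and KO-176 (0.06 against 0.05) had the higher median in TRAP RNA, each by little. These are medians within each fraction, not medians of the difference of differences by gene. Rps20 had the largest difference of differences, at -0.70 ± 0.17 and negative in 6 of 6 mice (adjusted p = 0.816). In TRAP RNA its levels at 20% oxygen, in the order of the mice given above, were 670.3, 745, 724, 533, 579.8 and 726 TPM, and at 1% oxygen 429, 500.2, 356, 796, 497 and 624 TPM. Rps27rt had -0.67 ± 0.36 and Rps12 -0.27 ± 0.08 in this difference, and Rpl10 had 0.26 ± 0.11, Rps2 0.16 ± 0.09 and Rpl27a 0.15 ± 0.17. KO-176 was the 1 mouse in which Rps20 was higher at 1% oxygen in TRAP RNA.

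The third comparison asked whether the labelled knockouts differed from the controls. Over the mouse means, 3 against 3, limma called 0 of 82 genes in either fraction, and 0% of all genes tested. Unadjusted, 429 genes of total and 321 of TRAP RNA had a p under 0.05, of which 0 and 1 were ribosomal protein genes. The median difference, labelled knockout minus control, was 0.08 in total RNA and -0.10 in TRAP RNA, beside -0.11 and -0.09 for all genes. These medians moved with the mice included: without KO-301 they were 0.35 and 0.19. KO-301 was not the only mouse far from the mean of the 6 in total RNA. The median deviation over the family was -0.52 there, -0.31 in HET-129 and 0.38 in KO-281. The sum of the macrophage markers differed by genotype in total RNA. It was 30925 to 35277 TPM in the controls and 22150 to 27804 TPM in the labelled knockouts, without overlap. In TRAP RNA the sums were 20058 to 33568 TPM and 17095 to 24414 TPM, with overlap. By gene, 0 of the 12 markers were called by genotype in either fraction. In each fraction 3 of the 12 had a positive difference, and the medians were -0.27 in total and -0.26 in TRAP RNA. Their part in the genotype values was not tested.

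Mice of 1 genotype lay far apart. In total RNA KO-301 was the lowest of the 6 mice in 67 of the 82 genes, with a median deviation of -0.52 from the mean of the mice, and in TRAP RNA in 73 genes, with -0.64. HET-129 was next, at -0.31 and -0.23, and KO-281 was the highest in total RNA in 54 genes, at 0.38. Over all genes the median deviations of KO-301 were -0.16 and -0.13. The summed share thus ran from 9.22 to 17.1% among the labelled knockouts in total RNA, on both sides of the controls at 10.3 to 15.7%.

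Other cell types' markers moved with the same mice. The 9 neutrophil markers summed to 61.0 and 96.8 TPM in the total RNA libraries of KO-301, 22.7 and 32.1 TPM in those of HET-129 and 5.96 to 12.8 TPM in the 8 libraries of the other mice, nearly all from S100a8 and S100a9, with Ly6g at 0. The 7 stromal markers summed to 50.01 to 60.6 TPM in KO-301, 24.6 to 30.9 TPM in HET-129 and 1.69 to 10.4 TPM in the others, led by Col1a1 and Col1a2. The 8 dendritic markers reached 6.56 TPM in KO-301, and the 6 B cell markers were lower in both mice, at 7.41 to 14.3 TPM against 19.6 to 54.9 TPM. The nuclear RNA Malat1 stood at 295 to 803 TPM in KO-301 and HET-129 and at 74.4 to 487 TPM in the others. The 6 T cell markers summed to 5.32 to 8.51 TPM in KO-301, 3.07 to 3.51 TPM in HET-129 and 0.859 to 3.63 TPM in the others. Mitochondrially encoded RNA made up 1.2 to 2.46% of TPM in KO-301 and 2.39 to 2.56% in HET-129, below the 3.00 to 4.74% of the others. Erythroid and mast cell markers stayed at or under 1.82 TPM in sum. The part of these cells or of RNA quality in the levels of the ribosomal protein genes was not tested, and in bulk RNA fewer cells of a type cannot be told apart from less RNA per cell.

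**Figure D5:**
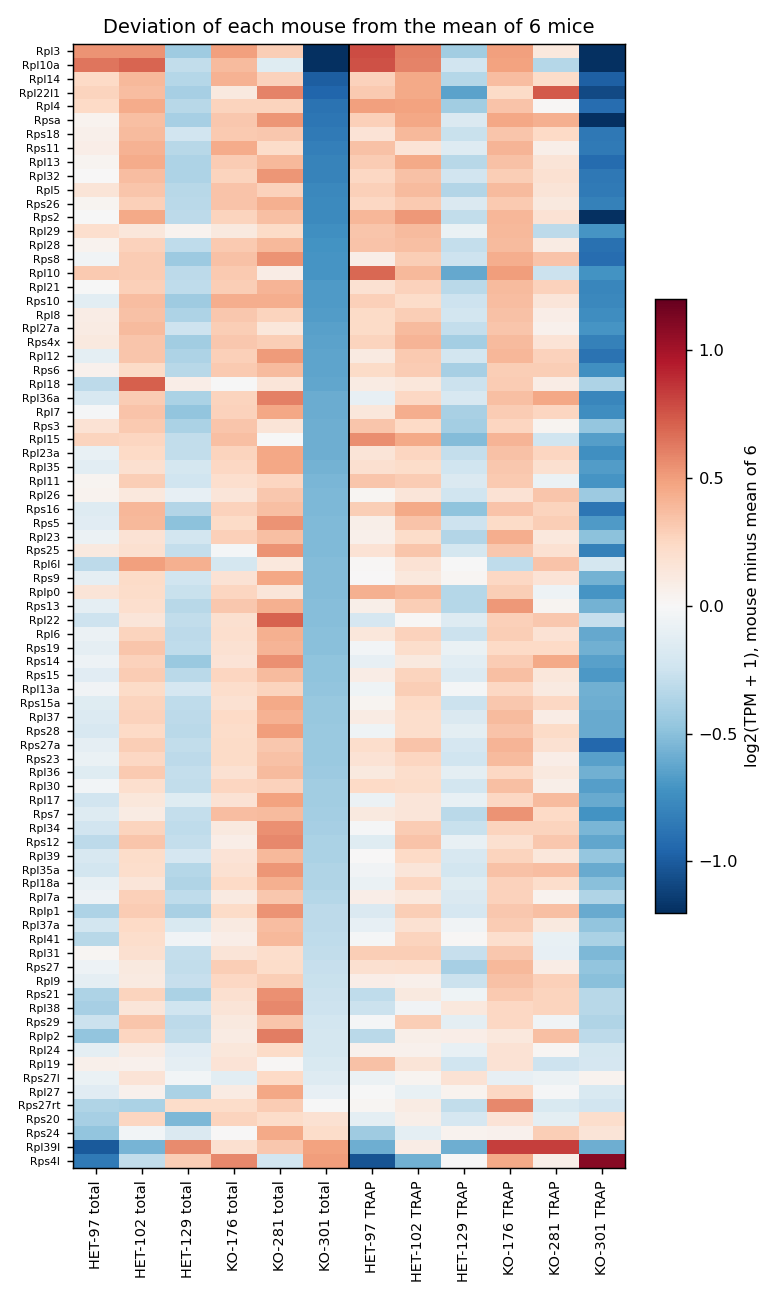
Deviation of each mouse from the mean of 6 mice in log2(TPM + 1), averaged over both oxygen levels, for 81 of the 82 tested genes (rows, in order of the deviation of KO-301 in total RNA), in total RNA on the left and TRAP RNA on the right; red is above and blue below the mean, and values beyond 1.2 are drawn in the end colour. The KO-301 columns are blue in most rows, with medians of -0.52 and -0.64, and Rps24, Rps20 and Rps4l in the lowest rows depart from the others.

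Rps24, whose gene is mutated in Diamond-Blackfan anaemia in humans, departed from that pattern. In normoxic total RNA Rps24 stood at 1291, 1836 and 1582 TPM in the controls and 1951.5, 2655 and 2203 TPM in the labelled knockouts, without overlap. At 1% oxygen it stood at 1385, 1772 and 1707 TPM and at 1767, 2421 and 2109 TPM, where KO-176 lay just under HET-102. The difference of 0.45 ± 0.22 in total RNA and 0.34 ± 0.24 in TRAP RNA did not pass the test (limma adjusted p = 0.901 and 0.999). Rps20 and Rps4l had 0.45 ± 0.23 and 0.57 ± 0.36 in total RNA, and Rps4l had 1.08 ± 0.39 in TRAP RNA, all with adjusted p of at least 0.901. Rpl22 had 0.22 ± 0.23 in TRAP RNA.

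Rpl10a encodes the protein whose EGFP fusion was used for the purification (chr17:28328471-28331033). In normoxic total RNA it stood at 1961, 1982 and 1063 TPM in the controls and 1584, 1136 and 489 TPM in the labelled knockouts, and the groups overlapped. The difference was -0.70 ± 0.48 in total RNA and -0.75 ± 0.47 in TRAP RNA (limma adjusted p = 0.901 and 0.999). As a share of the family's own TPM in total RNA it was 1.52, 1.23 and 0.925% in the controls and 1.02, 0.63 and 0.523% in the labelled knockouts, where KO-176 lay above HET-129. In TRAP RNA the shares were 1.23, 0.974 and 0.744% and 0.862, 0.537 and 0.478%, in the same order of mice. Whether the counted reads included the tagged transgene was not tested. Rpl3 had -0.44 ± 0.56 in total RNA and -0.65 ± 0.57 in TRAP RNA, and without KO-301 its difference in total RNA was 0.18. Rpl18 had -0.32 ± 0.32 in total RNA, and Rpl29 had -0.42 ± 0.31 in TRAP RNA.

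The interactions with genotype gave no calls either. In both fractions 0 of 82 genes differed between genotypes in their response to oxygen, and 0 of 82 in the TRAP difference, each with 0% of all genes called by limma. For oxygen, 1 and 2 of the 82 genes had an unadjusted p under 0.05 in the fractions, and 574 and 432 of all genes. In TRAP RNA these were Rps20 at 0.79 ± 0.25 and Rpl7 at -0.32 ± 0.12 (adjusted p = 0.999 for both), and in total RNA Rps12 at -0.26 ± 0.09 (adjusted p = 0.965). By size alone, Rps27rt at -0.61 ± 0.39, Rps4l at -0.53 ± 0.25 and Rps27a at -0.27 ± 0.14 were lowest in total RNA among genes of at least 4 TPM, and Rps16, Rplp0 and Rpl15 were highest at 0.18, 0.17 and 0.16. In TRAP RNA Rpl22l1 and Rps13 followed Rpl7 at -0.31 and -0.29, and Rps10 and Rpl41 followed Rps20 at 0.26 and 0.22. The TRAP difference was smaller in the labelled knockouts in 76 of the 82 genes, and in 6035 of all 12918 genes tested. The mice of both genotypes overlapped. As a median over the family, the TRAP difference was 0.93, 0.75 and 0.78 in the controls and 0.84, 0.53 and 0.65 in the labelled knockouts. The interaction had a median of -0.18 beside 0.02 for all genes, and 1 of the 82 and 456 of all genes had an unadjusted p under 0.05. Rpsa had -0.38 ± 0.19, Rps2 -0.32 ± 0.18 and Rps27a -0.30 ± 0.18, while Rps4l had 0.51 ± 0.25, Rpl18 0.34 ± 0.25 and Rpl26 0.09 ± 0.12. With quantile normalization the median was -0.04, and 51 genes were negative.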

How the data were processed

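Poly(A) RNA was measured in 24 libraries of macrophages from 6 mice. The headers name no unit. The deposited values were read as TPM because the libraries sum to 999629 to 999969 and low values share no common step of 1 read, so scaling for length by the authors is inferred, not stated. Read depth is unknown, and no counting interval can be given. HISAT, DESeq2 and the build GRCm38 appear, without their roles, per the submitters' processing notes. Versions, the read counter, the strand setting and the annotation: not given in the sources used here. A further 24 per-mouse columns of the tables were not used. Gene types, coordinates and coding lengths came from GENCODE on GRCm38, with 147 identifiers not matched, and start regions from RefSeq.

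Values were tested as log2(TPM + 1) with limma 3.58.1 in R 4.3.3 (empirical Bayes, mean-variance trend, two-sided), keeping genes with 1 TPM or more in 3 fitted libraries, with Benjamini-Hochberg adjustment over all genes tested and a threshold of 0.05. Each SE given is limma's moderated one, with the variance of the gene drawn toward a trend over all genes tested. Differences understate the change of low genes. Code was tested on simulated data. Figures used matplotlib 3.10.9 in Python 3.11.15. Mouse was a block for oxygen and fraction, and genotype and interactions were fitted on values per mouse. Sample titles carry 6 numbers, 3 per genotype, matching the mice the design states, and deviations from group means correlated between both oxygen levels of a mouse at 0.547 to 0.792 in total and 0.385 to 0.707 in TRAP RNA, so mice pair the samples. 

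The members and the gene lists (paralogues, 5S particle, P stalk, X-linked, related genes outside the rule, other TOP mRNAs, mTOR and TOP regulators, ribosome hibernation and rescue, ribosomal protein chaperones, hypoxia check, nuclear RNA and cell type markers) were chosen with earlier results of these data known. The text names Elavl1, chosen members of known role, the 5 highest and lowest members by level, and per comparison up to 8 members called in each direction or else the 3 with the largest difference at a mean of at least 4 TPM; Rps12 in an interaction, Rpl23 and Rpl29 at 1% oxygen, Rpl3, Rpl15 and Rps2 in the TRAP difference, and Larp1 were named after their values were seen. A few genes are not reported by name here. Alternatives were another pseudocount, no filter, other scalings, no trend, no block, and mice, genotypes or oxygen levels left out.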

Additional observations from a re-analysis of the deposited data

How the results depend on the processing

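The count of ribosomal protein genes higher in TRAP RNA, 74, was 78 after rescaling to other protein-coding genes, 70 with quantile normalization, 58 without the replicate block on mice and 81 with median centring, which was chosen after seeing the data, and 73 to 74 with any 1 mouse left out. The count called lower went from 0 to 3 with quantile normalization and ranged from 0 to 1 over left-out mice. All calls split into 1056 higher and 8289 lower as deposited, 1769 and 6907 after rescaling, 3435 and 3312 with quantile normalization and 6042 and 2208 with median centring. The 1 call at 1% oxygen in total RNA became 0 with no filter, quantile normalization, no trend, both HET-129 and KO-301 left out, no replicate block, controls only and labelled knockouts only, and ranged from 0 to 1 over left-out mice. Calls over all genes there, 492, became 529 with quantile normalization (269 higher and 260 lower against 194 and 298), 0 without the block and 48 to 224 over left-out mice. The genotype and interaction counts stayed at 0 in every alternative run. Of the 879 alternative values of named genes, 844 kept their direction and side of the threshold and 19 changed sign. In the TRAP difference, Rpl4 became 0.087 after rescaling and 0.66 with centring. Rps4l became 0.16 after rescaling, 0.70 with quantile normalization, 0.76 with centring and -0.16 to 0.018 over left-out mice, positive without HET-102 or HET-129, and 0.21 in labelled knockouts only. Rplp0 became 0.21 after rescaling, 0.78 with centring, -0.074 to 0.024 over left-out mice, positive without KO-281 or KO-301, 0.047 without HET-129 and KO-301 together, 0.10 in controls only and 0.032 in normoxia only. Rpl22l1 in hypoxic total RNA became 0.00050 without HET-129 and KO-301, Rps20 in hypoxic TRAP RNA 0.046 in labelled knockouts only, Rpl3 by genotype in total RNA -0.79 to 0.18 over left-out mice, positive without KO-301, and Rpl26 in the genotype difference of the TRAP effect -0.060 in normoxia only. The cause of these changes was not tested. With depth unknown, genes under 10 TPM are the least certain.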

Other observations

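Other genes of the translation machinery were measured in the same TRAP comparison, in which 8.17% of all genes were called higher and 64.2% lower, with a median of -0.54. Of 21 other TOP mRNAs, which include Fau and Rack1, 8 were called higher and 8 lower in TRAP RNA, with a median of 0.02. The elongation factor subunits Eef1b2 and Eef1d rose by 0.60 ± 0.09 and 0.47 ± 0.08, whereas the translocase Eef2 fell by 0.74 ± 0.07, the helicase cofactor Eif4b by 1.11 ± 0.08 and the poly(A)-binding protein Pabpc1 by 1.08 ± 0.08. Of the 26 mTOR and TOP regulators tested 22 fell and 0 rose, with a median of -0.91: Larp1, which binds TOP mRNAs, fell by 1.02 ± 0.08, its relatives Larp4 and Larp4b by 1.84 ± 0.20 and 1.62 ± 0.23, and the cap-binding protein Eif4e by 1.38 ± 0.16. Of 13 genes for ribosome hibernation and rescue 8 fell and 1 rose, from the ribosome recycling factor Abce1, which fell by 1.54 ± 0.10, to Edf1 at 0.46 ± 0.10. Of 13 chaperones and importers of ribosomal proteins 9 fell and 2 rose, with Ipo7 at -1.95 ± 0.19 and Naca at 0.32 ± 0.07. For the hibernation genes and the chaperones these counts are near the shares over all genes.

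At 1% oxygen in total RNA, where 1.56% of all genes were called higher and 2.4% lower, 2 of the 21 other TOP mRNAs rose, Eef2 by 0.26 ± 0.05 and the filament protein Vim by 0.42 ± 0.08, and Naca fell by 0.20 ± 0.04. Eif4ebp1, the mTOR target that holds back cap-dependent translation, rose by 0.33 ± 0.06 (limma adjusted p = 0.037) and was the 1 call among 26 regulators, a share near the 3.97% of all genes. Nemf, which tags stalled nascent chains, fell by 0.46 ± 0.07 (adjusted p = 0.023). In TRAP RNA 0 genes of these 4 lists were called, where limma called 0.0343% of all genes. No gene of them was called by genotype in either fraction. Of the 78 mitochondrial ribosomal protein genes 1 fell in total RNA at 1% oxygen and 0 were called in TRAP RNA. Of the nuclear RNAs Malat1 fell by 1.16 ± 0.10 in total RNA at 1% oxygen.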
